A study of Homo sapiens with 12 samples.

Results

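Genes of plasminogen activation and of the serpins and Kunitz-domain inhibitors that act on serine proteases were read in RNA-seq counts of 2 triple-negative breast cancer (TNBC) cell lines with and without CD44, the cell surface receptor for hyaluronan. The set holds 9 of the 58381 genes in the count table, matched by gene symbol through their Ensembl identifiers: PLAU, PLAT, PLAUR, SERPINE2, SERPINB2, SERPINB7, SERPINB8, TFPI and TFPI2. SERPINB2, SERPINB7 and TFPI2 were chosen by their measured values, because their counts were higher in CD44 KO cells, so their changes with CD44 KO are given as a description without a test. For the other 6 genes no measured value was named in the choice, but earlier results of these data were known when it was made. All 9 were among the 15836 genes tested, but SERPINB2 and SERPINB7 passed the filter on low counts only through the MDA-MB-231 libraries.

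Hs578T, from a primary tumor, and MDA-MB-231, from a metastasis, are mesenchymal-like lines, and each was read as CD44 WT and as CD44 KO cells, which gave 4 groups of 3 libraries and 12 in all. All cells, CD44 WT included, carried a doxycycline-inducible Cas9 and puromycin resistance. CD44 KO cells were transfected with guides against exons 1 and 5 of CD44, and CD44 WT cells received the transfection reagent alone. Both were sorted as live CD29+ cells by their CD44 stain and kept as sorted populations rather than clones, and RNA was extracted after 24 h in 1% serum. Loss of CD44 and any other difference between the sorted populations cannot be told apart here, nor can, in these bulk samples, a change in the share of cells and one in RNA per cell. The sources do not say if libraries of a group stem from separate cultures, so p-values measure the spread between these libraries, which may be technical.

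Total counts ranged from 10257586 to 19725543 per library. CD44 fell from 507 ± 17.6 to 27.3 ± 2.06 CPM in Hs578T (normalized read counts relative to the scaled library size, mean ± SD, n = 3), and in MDA-MB-231 it was at 362 ± 1.70 and 34.2 ± 5.40 CPM. VIM, the intermediate filament of mesenchymal cells, was between 3730 and 7262 CPM in every library. FN1, another mesenchymal marker, differed by line. Its means were 4596 (CD44 WT) and 3649 CPM (CD44 KO) for Hs578T, against 276 and 274 CPM for MDA-MB-231. Of 7 epithelial and luminal genes, PGR and CDH1 reached at most 0 and 0.971 CPM. The 7 genes summed to 823 to 1268 CPM per library, mostly from the keratins KRT8 and KRT18. ERBB2 was also expressed, with group means from 61.9 to 94.5 CPM. EPCAM averaged 17.6 (CD44 WT) and 16.8 CPM (CD44 KO) for MDA-MB-231, but reached at most 0.0853 CPM in any Hs578T library. Among markers of other cells, the summed level of 6 leukocyte genes went from between 5.16 and 6.17 CPM to between 7.76 and 9.39 CPM with CD44 KO in Hs578T, with PTPRC at 0.369 and 3.78 CPM and CD163 at 0 in every library. The summed level of 5 endothelial genes went from between 6.17 and 9.71 CPM to between 14.1 and 15.6 CPM with CD44 KO in MDA-MB-231. KDR was at 5.97 and 11.9 CPM there, and TEK at 0 in all libraries of that line. In Hs578T, KDR was at 0.0737 CPM in CD44 WT and 1.44 CPM in CD44 KO, and TEK at 3.21 and 0.193 CPM. The part of these marker changes in the results was not tested.

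Plasminogen, a circulating zymogen, is turned into plasmin by urokinase (PLAU), which acts on cells through its receptor (PLAUR), and by tissue plasminogen activator (PLAT). Plasmin degrades fibrin and matrix glycoproteins, and in breast tumors the urokinase system is known for its part in invasion. Serpins trap their target protease in a covalent complex, and Kunitz-domain inhibitors such as TFPI and TFPI2 block the active site reversibly. The plasminogen gene PLG itself had 0 counts in all 12 libraries.

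SERPINB2 and SERPINB7 stood higher in MDA-MB-231 CD44 KO than in CD44 WT, and TFPI2 stood higher with CD44 KO in both lines. Among the other 6 genes, PLAT fell and SERPINB8 rose in Hs578T CD44 KO, and 4 did not pass the test. The share of all genes called in that comparison was 7.51%, with 3.64% higher and 3.86% lower. In MDA-MB-231, 0 of the 6 genes passed (edgeR's quasi-likelihood test, Benjamini-Hochberg adjusted p of at most 0.01), against 4.62% of all genes, 1.97% higher and 2.65% lower. At an unadjusted p under 0.05 there were 3 of the 6. DESeq2 called 1, SERPINB8, and 1138 of all genes in that line. No share of all genes at an unadjusted p under 0.05 is given here. Such counts, here and below, therefore do not show an excess. The difference of the changes between the lines passed for PLAT alone among the 6 genes, where 4.12% of all genes passed.

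**Figure D1:**
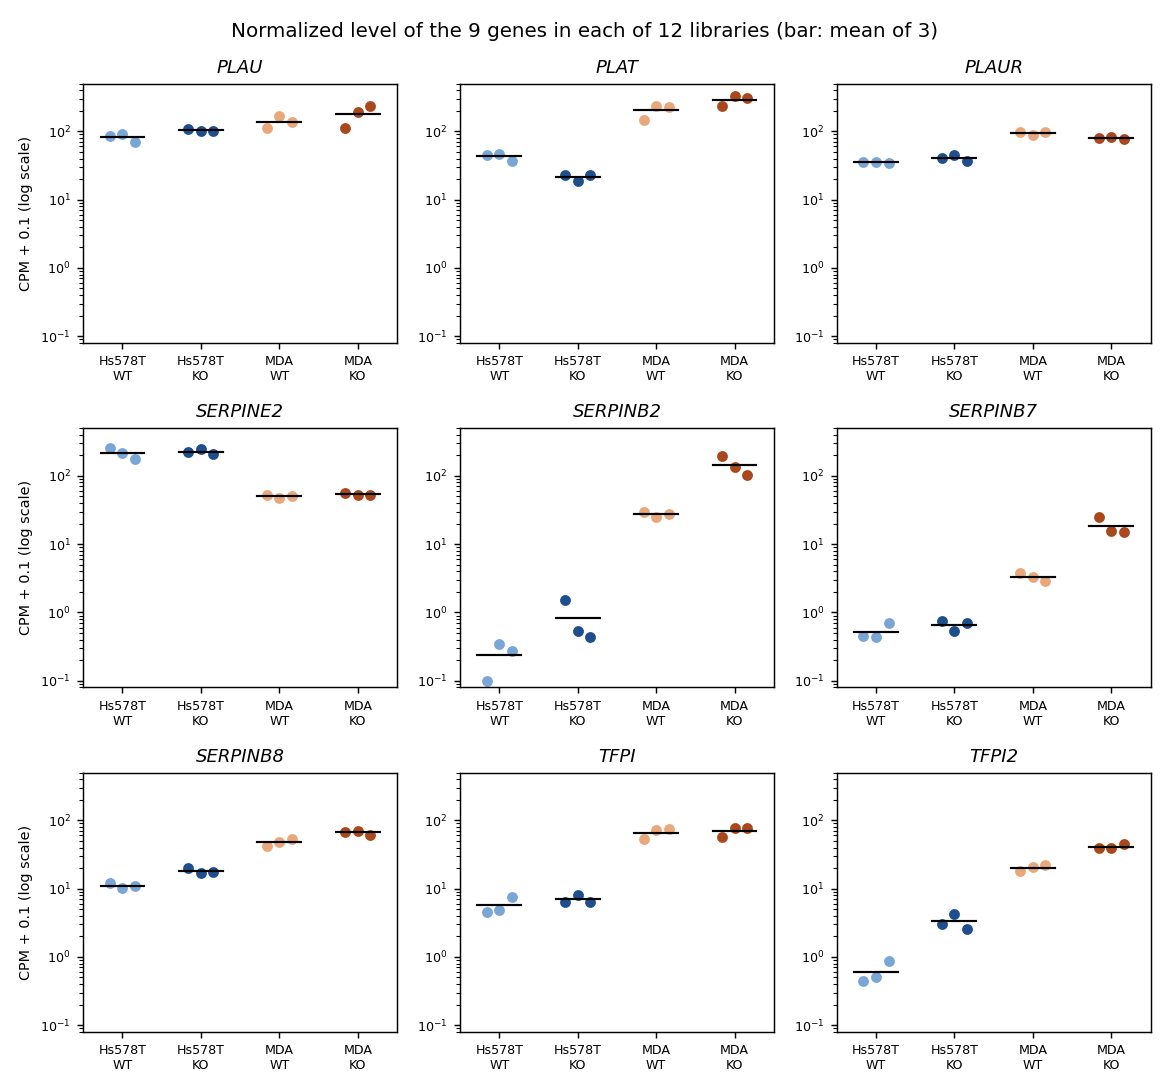
CPM plus 0.1 on a log axis for each of the 9 genes in the 12 libraries, by line and CD44 state, with a bar at the mean of each group of 3 libraries. SERPINE2 is the one gene with higher levels in Hs578T, and SERPINB2 spans the widest range, from 0 to 195 CPM.

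PLAT, the secreted activator best known for dissolving fibrin clots, was the activator that changed. In Hs578T it was at 45.4, 46.6 and 37.2 CPM in the CD44 WT libraries and at 22.7, 18.9 and 22.8 CPM in the CD44 KO libraries. All 3 CD44 KO libraries lay below all CD44 WT libraries. On the log2 scale it fell by 1.01 with CD44 KO (standard error, SE, 0.182; edgeR adjusted p = 0.00153). In MDA-MB-231 it was at 146.8, 234.2 and 231.1 CPM in CD44 WT and at 231.8, 329.4 and 309.9 CPM in CD44 KO. These groups overlapped, since the lowest CD44 KO library lay between CD44 WT libraries, and the log2 fold change of 0.51 (SE 0.164, adjusted p = 0.0659) did not pass. The change differed between the lines by -1.52 on the log2 scale, Hs578T minus MDA-MB-231 (SE 0.245, adjusted p = 0.00105). Without Hs578T CD44 KO replicate 2 the Hs578T change was -0.92 with an adjusted p of 0.0142, whereas the difference between the lines passed in all 12 fits that left out a library, with adjusted p up to 0.00558.

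PLAU, the urokinase gene, stood at 86.4, 90.8 and 69.2 CPM in Hs578T CD44 WT and at 109.9, 101.2 and 100.2 CPM in CD44 KO. The CD44 KO libraries all lay above the CD44 WT libraries, yet the log2 fold change of 0.34 (SE 0.207, adjusted p = 0.326, edgeR) did not pass. In MDA-MB-231 it stood at 112.5, 165.2 and 136.8 CPM in CD44 WT and at 110.5, 192.0 and 235.3 CPM in CD44 KO. The groups overlapped there, with a log2 fold change of 0.37 (SE 0.204, adjusted p = 0.292).

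Per kb of exon, PLAU exceeded PLAT in every library. The length is that of all annotated exons, 2950 nt for PLAU and 6618 nt for PLAT, and this order rests on it. In CPM, PLAT was the higher in MDA-MB-231. Means were 204 against 138 in CD44 WT and 290 against 179 in CD44 KO. The ratio of PLAU to PLAT per kb lay between 4.17 and 4.38 in Hs578T CD44 WT and between 9.87 and 12.04 in Hs578T CD44 KO. Geometric means were 4.27 and 10.9. In MDA-MB-231 the ratio lay between 1.33 and 1.72 in CD44 WT and between 1.07 and 1.70 in CD44 KO. The groups were thus apart in Hs578T, where PLAT fell, and overlapped in MDA-MB-231.

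PLAUR, the membrane-anchored urokinase receptor, was at 35.2, 35.5 and 33.9 CPM in Hs578T CD44 WT and at 40.6, 44.5 and 36.1 CPM in CD44 KO. In MDA-MB-231 it was at 98.8, 88.6 and 96.3 CPM in CD44 WT and at 80.7, 83.2 and 77.7 CPM in CD44 KO. The libraries of the groups did not overlap in either line, higher with CD44 KO in Hs578T and lower in MDA-MB-231. The log2 fold changes of 0.21 (SE 0.0934, adjusted p = 0.151, edgeR) and -0.23 (SE 0.0892, adjusted p = 0.127) did not pass, nor did their difference of 0.44 (SE 0.129, adjusted p = 0.0401). Of the 6 genes, 4 had CD44 KO and CD44 WT libraries that did not overlap in Hs578T and 3 in MDA-MB-231, against 37.3% and 25.5% of all genes.

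**Figure D2:**
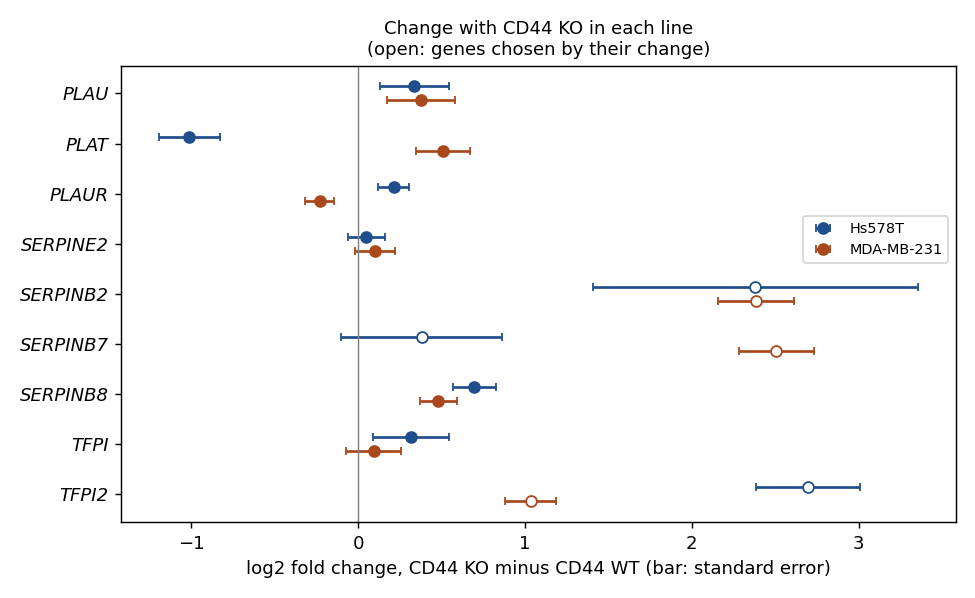
Fitted log2 fold change with CD44 KO for the 9 genes in Hs578T (blue) and MDA-MB-231 (orange), with standard errors from the fit of 12 libraries. Open points are the genes chosen by their change, and PLAT lies at -1.01 in Hs578T and 0.51 in MDA-MB-231.

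SERPINB2 encodes plasminogen activator inhibitor type 2, a largely intracellular inhibitor of urokinase. In MDA-MB-231 it stood at 29.7, 25.0 and 27.9 CPM in CD44 WT and at 195.0, 132.5 and 103.3 CPM in CD44 KO. The lowest CD44 KO library was far above the highest CD44 WT library, but the CD44 KO libraries were spread widely among themselves. The log2 fold change was 2.39 (SE 0.225), and 5850 counts against 967 gave a ratio of 5.22. In Hs578T it was at 0, 0.247 and 0.169 CPM in CD44 WT and at 1.44, 0.432 and 0.341 CPM in CD44 KO. These rest on 5 counts in all CD44 WT libraries and 29 in all CD44 KO libraries, 18 of them in replicate 1, with a ratio of 5.51. The fitted log2 fold change of 2.38 (SE 0.972) became 1.53 without Hs578T CD44 KO replicate 1. Ratios of summed counts do not show the spread between libraries.

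SERPINB7, also called megsin, a clade B serpin known from epidermis and from mesangial cells of the kidney, was at 3.69, 3.16 and 2.76 CPM in MDA-MB-231 CD44 WT and at 24.6, 15.5 and 14.7 CPM in CD44 KO. The groups did not overlap and the log2 fold change was 2.50 (SE 0.225). In Hs578T it was at 0.347, 0.329 and 0.592 CPM in CD44 WT and at 0.642, 0.432 and 0.597 CPM in CD44 KO. These groups overlapped, with 16 against 22 counts, a ratio of 1.31 (exact 95% counting interval 0.655 to 2.66). The ratio in MDA-MB-231, 732 against 113 counts, was 5.59, and the difference between the lines was not tested.

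SERPINB8, which inhibits the proprotein convertase furin, lies in the same serpin cluster as SERPINB2. In Hs578T it stood at 12.1, 10.0 and 10.8 CPM in CD44 WT and at 19.9, 16.7 and 17.1 CPM in CD44 KO. It rose there with a log2 fold change of 0.70 (SE 0.128, adjusted p = 0.00178, edgeR) and without overlap of the libraries. In MDA-MB-231 it stood at 41.9, 47.4 and 53.6 CPM in CD44 WT and at 66.8, 70.7 and 61.6 CPM in CD44 KO. The libraries did not overlap there either, but the log2 fold change of 0.48 (SE 0.112) had an adjusted p of 0.0124. DESeq2 gave an adjusted p of 0.00143 for it. The difference between the lines, 0.22 (SE 0.170, adjusted p = 0.482), did not pass. In MDA-MB-231 the change passed when the CD44 WT library without a replicate number was left out (0.57, adjusted p = 0.00685). The Hs578T call was lost without CD44 WT replicate 2 (adjusted p = 0.0131) and without CD44 KO replicate 1 (adjusted p = 0.0119) of that line.

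SERPINE2, or protease nexin-1, a secreted inhibitor of thrombin, urokinase and plasmin, was at 258.6, 215.7 and 178.2 CPM in Hs578T CD44 WT and at 222.9, 243.9 and 208.5 CPM in CD44 KO. In MDA-MB-231 it was at 51.9, 47.9 and 50.5 CPM in CD44 WT and at 56.4, 52.7 and 52.1 CPM in CD44 KO. The groups overlapped in Hs578T and lay close together without overlap in MDA-MB-231. The log2 changes were 0.05 (SE 0.112, adjusted p = 0.836, edgeR) and 0.10 (SE 0.119, adjusted p = 0.663), and the Hs578T value changed sign to -0.08 without CD44 WT replicate 3 of Hs578T and to -0.01 without its CD44 KO replicate 2.

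TFPI and TFPI2 each carry 3 Kunitz domains. TFPI2, a matrix-bound inhibitor of plasmin and trypsin, was at 0.347, 0.411 and 0.762 CPM in Hs578T CD44 WT and at 2.97, 4.19 and 2.47 CPM in CD44 KO. In MDA-MB-231 it was at 17.7, 20.4 and 22.1 CPM in CD44 WT and at 38.9, 39.5 and 45.2 CPM in CD44 KO. The libraries did not overlap in either line. The log2 fold changes were 2.70 (SE 0.312) and 1.03 (SE 0.153). The ratios were 6.70 in Hs578T (134 against 19 counts) and 2.03 in MDA-MB-231 (1663 against 707 counts).

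TFPI, the inhibitor of factor Xa and of the tissue factor complex, was at 4.44, 4.77 and 7.53 CPM in Hs578T CD44 WT and at 6.34, 7.89 and 6.31 CPM in CD44 KO. In MDA-MB-231 it was at 52.5, 71.4 and 73.7 CPM in CD44 WT and at 56.3, 76.9 and 77.5 CPM in CD44 KO. The groups overlapped in both lines. The log2 fold changes of 0.32 (SE 0.228, adjusted p = 0.413, edgeR) and 0.09 (SE 0.167, adjusted p = 0.804) did not pass.

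The difference between the lines, averaged over both CD44 states, was not used to choose members. SERPINB2 and SERPINB7 passed the filter on low counts through MDA-MB-231, where they are high, so their gaps of -7.62 (SE 0.286) and -3.97 (SE 0.226) on the log2 scale, Hs578T minus MDA-MB-231, are given without a test. The other 7 genes all passed, with SERPINE2 higher in Hs578T and the others lower. Over all genes tested, 35.0% were lower and 38.4% were higher in Hs578T. TFPI2 differed by -4.48 (SE 0.155, adjusted p = 4.75e-13, edgeR) and TFPI by -3.46 (SE 0.142, adjusted p = 3.56e-12). PLAT (8.02-fold lower, SE of the log2 difference 0.129) and, on the log2 scale, SERPINB8 (-2.00), PLAUR (-1.22) and PLAU (-0.77) followed, with adjusted p from 5.86e-12 to 1.63e-04. SERPINE2 was higher in Hs578T by 2.09 (SE 0.0842, adjusted p = 2.8e-12). The Hs578T CD44 KO levels of the 3 chosen genes lay below their MDA-MB-231 CD44 WT levels in every library.

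**Figure D3:**
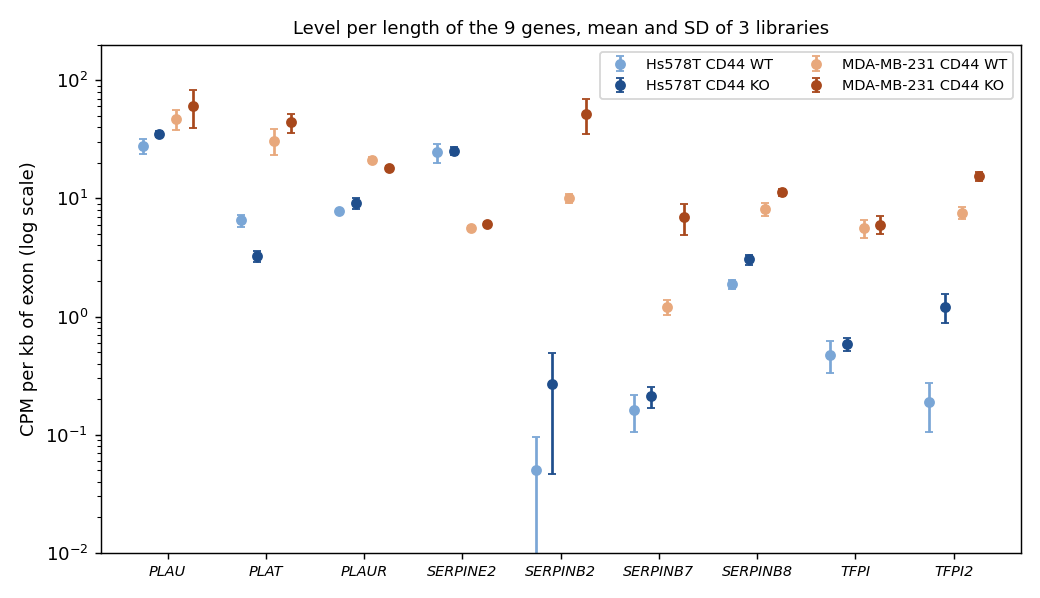
CPM per kb of exon on a log axis for the 9 genes in the 4 groups, mean and SD of 3 libraries, where a bar that would reach 0 or below runs off the axis. SERPINB2 spans from 0.0505 in Hs578T CD44 WT to 52.3 in MDA-MB-231 CD44 KO, next to PLAU at 60.8 in the same group.

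Levels per length ordered the genes differently in the 2 lines. These places rest on the length of all annotated exons, from 2637 nt for SERPINB7 to 11714 nt for TFPI. In CPM, SERPINE2 was above PLAU in Hs578T, and PLAT was above PLAU in MDA-MB-231. PLAU came first in all 4 groups, from 27.8 ± 3.88 CPM per kb in Hs578T CD44 WT to 60.8 ± 21.5 in MDA-MB-231 CD44 KO (SD, n = 3). In Hs578T CD44 WT it was followed by SERPINE2 (24.5 ± 4.52), PLAUR (7.83 ± 0.188), PLAT (6.51 ± 0.766), SERPINB8 (1.88 ± 0.181), TFPI (0.476 ± 0.145), TFPI2 (0.190 ± 0.0839), SERPINB7 (0.160 ± 0.0558) and SERPINB2 (0.0505 ± 0.0459). Libraries of PLAU and SERPINE2 overlapped there, as did those of TFPI2 and SERPINB7. In Hs578T CD44 KO, PLAT fell to the level of SERPINB8, 3.24 ± 0.338 against 3.05 ± 0.298, and TFPI2 passed TFPI, 1.21 ± 0.332 against 0.585 ± 0.0773. In CPM, TFPI stayed above TFPI2 in that group, with means of 6.85 against 3.21.

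In MDA-MB-231 CD44 WT, PLAU (46.8 ± 8.94) and PLAT (30.8 ± 7.49) led, then PLAUR (21.2 ± 1.199), SERPINB2 (10.0 ± 0.859), SERPINB8 (8.12 ± 0.992) and TFPI2 (7.55 ± 0.826, CPM per kb). The libraries of SERPINB2 and SERPINB8 overlapped, as did those of SERPINB8 and TFPI2, and those of SERPINE2 (5.63 ± 0.229) and TFPI (5.62 ± 0.990). With CD44 KO, SERPINB2 reached 52.3 ± 17.1, a level at which its libraries overlapped those of PLAU and PLAT. In CPM, its libraries overlapped those of PLAU but lay below those of PLAT. SERPINB7 went from the lowest place, 1.22 ± 0.176, to 6.93 ± 2.08, where it overlapped SERPINE2 (6.04 ± 0.263).

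SERPINB7, SERPINB2 and SERPINB8 lie in this order on the plus strand of chromosome 18 (GRCh38), from 63752935 to 63805376, from 63871692 to 63903890 and from 63969925 to 64019779, in the cluster of clade B serpins. TFPI2 lies on the minus strand of chromosome 7 from 93885397 to 93890991. Because the clustered genes and TFPI2 were higher with CD44 KO in at least 1 line, their promoters are shown as RefSeq gives them for GRCh38.p14, 250 bases before to 50 bases after an annotated start, 5′ to 3′ on the gene's strand. Capitals mark TGAGTCA, the consensus of the AP-1 transcription factors, TGAATCA, which differs from it by a letter (either also as its reverse complement; they do not overlap here), and TATAAA, the TATA box, on the strand of the gene. For SERPINB7, which has 3 annotated starts, the most downstream one is shown.
SERPINB2, chr18:63887455-63887754: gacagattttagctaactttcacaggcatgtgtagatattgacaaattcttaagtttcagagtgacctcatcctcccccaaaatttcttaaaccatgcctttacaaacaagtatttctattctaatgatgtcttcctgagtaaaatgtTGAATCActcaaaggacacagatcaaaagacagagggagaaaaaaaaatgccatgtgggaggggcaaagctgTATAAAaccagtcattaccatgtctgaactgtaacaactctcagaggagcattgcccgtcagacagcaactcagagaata
SERPINB7, chr18:63777531-63777830: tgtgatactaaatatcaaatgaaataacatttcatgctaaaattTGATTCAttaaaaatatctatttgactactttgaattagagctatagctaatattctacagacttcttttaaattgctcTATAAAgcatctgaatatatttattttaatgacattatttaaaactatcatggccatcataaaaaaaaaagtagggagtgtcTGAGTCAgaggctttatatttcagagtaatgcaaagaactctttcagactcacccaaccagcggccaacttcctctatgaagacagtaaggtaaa
SERPINB8, chr18:63969831-63970130: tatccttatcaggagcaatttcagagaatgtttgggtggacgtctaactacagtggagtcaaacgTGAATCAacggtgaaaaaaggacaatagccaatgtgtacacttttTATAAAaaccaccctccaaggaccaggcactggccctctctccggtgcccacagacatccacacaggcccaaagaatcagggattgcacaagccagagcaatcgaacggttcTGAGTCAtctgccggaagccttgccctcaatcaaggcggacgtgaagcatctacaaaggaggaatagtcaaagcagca
TFPI2, chr7:93890704-93891003: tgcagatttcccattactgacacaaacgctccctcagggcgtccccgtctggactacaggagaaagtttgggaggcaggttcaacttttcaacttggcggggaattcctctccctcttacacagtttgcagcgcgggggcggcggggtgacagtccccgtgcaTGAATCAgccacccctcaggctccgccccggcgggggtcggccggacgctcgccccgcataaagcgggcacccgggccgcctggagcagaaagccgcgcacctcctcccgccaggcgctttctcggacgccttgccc

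TGAATCA was found in each of these 4 promoters, with its leftmost base at -102 from the start in SERPINB2, -206 in SERPINB7 (as the reverse complement), -185 in SERPINB8 and -87 in TFPI2. TGAGTCA was found in SERPINB7 (-45) and SERPINB8 (-28), as well as in PLAUR (-186). Of the other starts of SERPINB7, the second also held both, TGAGTCA at -39 and TGAATCA at -154, and the first held neither. Of the 35116 RefSeq promoters of this length, 2.98% hold TGAATCA, 4.95% TGAGTCA and 11.5% TATAAA on either strand. TATAAA began at -30 in SERPINB2, and TGACGTCA, the cyclic AMP response element, which 1.85% of promoters hold, was in none of the promoters of the members searched. The letters searched for were chosen after these promoters had been read, no binding was measured, and PLAT was not searched.

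The genes that flank the serpin cluster were read as well, since position was not used to choose the members. Of the 6 other genes tested within 1 Mb of SERPINB2, all 6 had a positive log2 fold change with CD44 KO in MDA-MB-231, with a median of 0.59 and a range from 0.13 to 1.45. VPS4B, of the endosomal sorting machinery, rose by 0.59 (SE 0.121, adjusted p = 0.00614, edgeR) and KDSR, of ceramide synthesis, by 0.60 (SE 0.109, adjusted p = 0.00228). SERPINB8, at 0.48, lay below that median. SERPINB2 and SERPINB7 lay above all 6, but they were chosen for higher counts with CD44 KO. Their place is thus a description only. In Hs578T, 5 of the 6 were positive with a median of 0.19, and 0 passed by edgeR or DESeq2. At an unadjusted p under 0.05 there were 2, with no share of all genes to set beside them.

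The shift in MDA-MB-231 was not restricted to the cluster. Chromosome 18 was read after the values of the neighbours had been seen. Over its 246 other genes tested, 186 had a positive log2 fold change in that line, with a median of 0.30. Of these 246, 27 were called higher and 2 lower. Over all genes tested the median was -0.01, 45% were positive, 1.97% were called higher and 2.65% lower. This median was the highest of the 22 autosomes and X in MDA-MB-231, and the median of the same genes in Hs578T was 0.03. By library, the median of the 6 neighbours of SERPINB2, against the mean of the CD44 WT libraries, lay between -0.20 and 0.22 in MDA-MB-231 CD44 WT and between 0.53 and 0.61 in CD44 KO. The part of this difference in the levels of the 3 serpins was not tested.

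**Figure D4:**
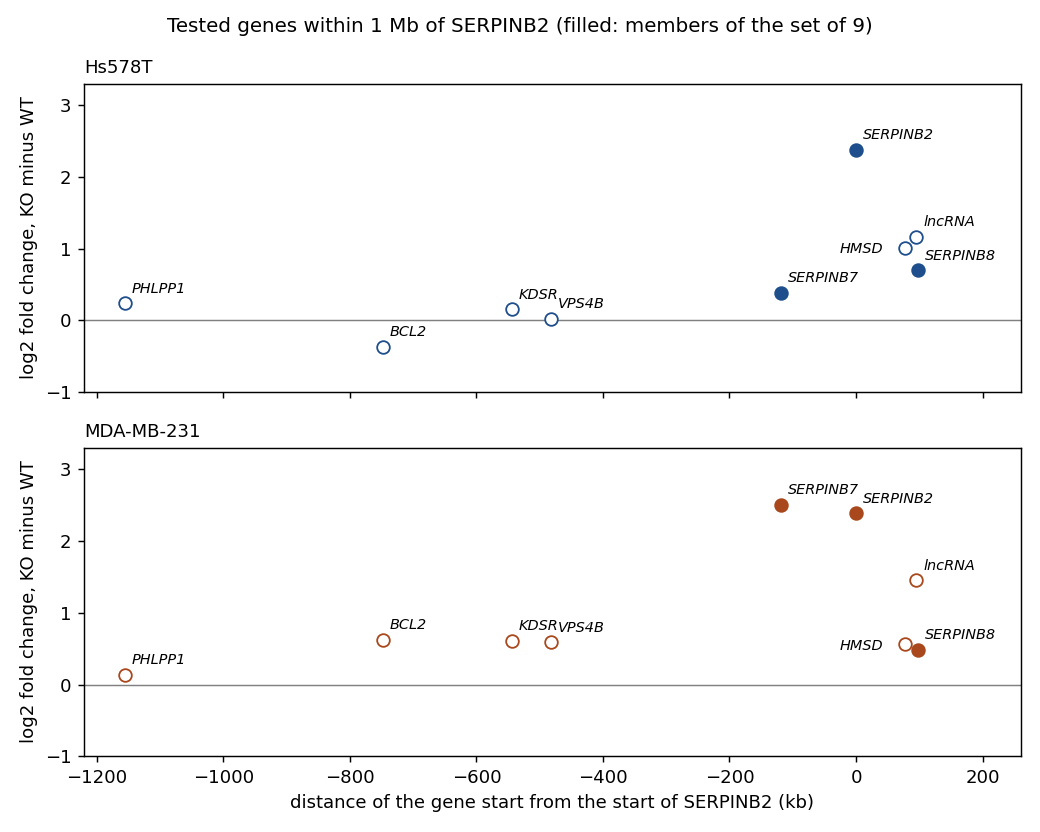
Log2 fold change with CD44 KO for each tested gene within 1 Mb of SERPINB2, by the distance of its start from the start of SERPINB2 in kb, in Hs578T (top) and MDA-MB-231 (bottom), with members filled. In MDA-MB-231 every gene lies above 0, with SERPINB7 and SERPINB2 at 2.50 and 2.39.

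Over the neighbourhoods of all 9 genes, 114 other genes within 1 Mb were tested. In MDA-MB-231, 6 were called higher, which is 5.26%, and none lower, beside 1.97% higher and 2.65% lower over all genes. Besides VPS4B and KDSR these were ADK and PPP3CB near PLAU (0.46 and 0.49 on the log2 scale), KCNN4 near PLAUR (0.94) and GINS4 near PLAT (0.47). In Hs578T, CFAP70 near PLAU (1.71) and DOCK10 near SERPINE2 (1.15) were called higher, and ANK1 near PLAT (-0.62) and COL1A2 near TFPI2 (-5.32) lower. The 2 called higher are 1.75% of the 114, beside 3.64% higher and 3.86% lower over all genes, so calls were no more frequent there.

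Positions of the remaining genes on GRCh38 were as follows. PLAU lies on chromosome 10 from 73909177 to 73917497, PLAUR on chromosome 19 from 43646095 to 43670547 and PLAT on chromosome 8 from 42175233 to 42207724. SERPINE2 and TFPI lie on chromosome 2, from 223975112 to 224039319 and from 187464230 to 187565760. Reads were counted by strand. SERPINB2 overlaps SERPINB10, SERPINB8 overlaps HMSD and PLAUR overlaps RN7SL368P on the same strand, so the split of shared fragments between these genes is uncertain.

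Related genes were taken from 5 lists of 81 genes in all, of which 39 were tested. In Hs578T 9 were called, 4 higher and 5 lower with CD44 KO, which is beside 7.51% of all genes, and in MDA-MB-231 4, with 1 higher and 3 lower, beside 4.62%. These counts include F2RL2, F2RL3 and SERPING1, which exceeded 1 CPM only in the groups where they were high and passed the filter through them, so their values are given without a test. Among 13 tested genes of plasminogen activation, 10 had a positive log2 fold change in Hs578T (median 0.24) and 2 in MDA-MB-231 (median -0.15), beside medians over all genes of 0.00 and -0.01. SORL1, a sorting receptor that carries proteins to endosomes, rose in Hs578T from 15.4 ± 5.76 to 32.4 ± 2.72 CPM (log2 fold change 1.07, adjusted p = 0.00385, edgeR) and fell in MDA-MB-231 from 2.00 ± 0.681 to 0.234 ± 0.123 CPM (-2.98, adjusted p = 0.00224, SD, n = 3). SERPINI1, or neuroserpin, an inhibitor of PLAT, rose in Hs578T from 6.49 ± 1.57 to 12.4 ± 2.07 CPM (0.94, adjusted p = 0.00631), in the line where PLAT itself fell. It was at 5.94 ± 0.465 and 3.95 ± 1.12 CPM in MDA-MB-231. Without Hs578T CD44 WT replicate 2 the Hs578T call of SORL1 was lost (adjusted p = 0.0234), without MDA-MB-231 CD44 KO replicate 2 that in MDA-MB-231 (0.0165) and without Hs578T CD44 KO replicate 2 that of SERPINI1 (0.0465), among other libraries.

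MRC2, the urokinase receptor-associated collagen receptor, was called higher in both lines. It went from 382.5 ± 23.3 to 528.8 ± 25.2 CPM in Hs578T (log2 fold change 0.47, adjusted p = 0.00891, edgeR, n = 3). In MDA-MB-231 it went from 16.7 ± 2.73 to 30.5 ± 4.33 CPM (0.87, adjusted p = 4.29e-04). SERPINA5, the protein C inhibitor, which also inhibits urokinase, fell in Hs578T from 21.2 ± 7.52 to 4.40 ± 1.04 CPM (-2.26, adjusted p = 7.1e-05) and stayed at or under 0.296 CPM in every MDA-MB-231 library. ENO1, a glycolytic enzyme that also binds plasminogen at the cell surface and has near-identical pseudogenes, fell in MDA-MB-231 from 4778 ± 532 to 3350 ± 286 CPM (-0.51, adjusted p = 0.00305). The calls of SERPINA5 in Hs578T and of MRC2 in MDA-MB-231 held in all 12 fits that left out a library. The latter was lost when MDA-MB-231 was fitted alone (adjusted p = 0.0136). In Hs578T the MRC2 call was lost without any single Hs578T library (adjusted p from 0.0219 to 0.0536). It was also lost without MDA-MB-231 CD44 WT replicate 3 (0.0107) or CD44 KO replicate 2 (0.015). The ENO1 call was lost without MDA-MB-231 CD44 KO replicate 1 (0.0168), among others.

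Of the serpins beyond the set, 3 further clade B genes and 4 of other clades were tested. The clade B genes gave 0 calls in either line by edgeR, with 2 in Hs578T and 0 in MDA-MB-231 at an unadjusted p under 0.05, and DESeq2 called 1 and 0. SERPINB3, SERPINB4, SERPINB11, SERPINB12 and SERPINB13, which share the cluster, had 0 counts in all libraries. SERPING1, the C1 inhibitor, was at 2.66 ± 0.998 CPM in Hs578T CD44 WT and at 0.669 ± 0.262 CPM in CD44 KO (SD, n = 3), and had 0 counts in MDA-MB-231 CD44 KO. Of 8 further Kunitz-domain genes, 0 were called in either line by edgeR, and DESeq2 called 1 and 0. At an unadjusted p under 0.05 there were 5 in Hs578T and 3 in MDA-MB-231. As for the clade B genes, no share of all genes is given beside these unadjusted counts.

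Among 11 tested genes of coagulation and thrombin signalling, F2RL2 and F2RL3 encode receptors of the thrombin receptor family. F2RL3 (PAR4) was at 0.130 ± 0.0441 CPM in Hs578T CD44 WT and at 2.35 ± 1.29 CPM in CD44 KO (SD, n = 3). F2RL2 (PAR3) was at 1.31 ± 0.114 and 0.275 ± 0.0405 CPM in Hs578T CD44 WT and CD44 KO, and at 2.05 ± 0.460 and 0.634 ± 0.258 CPM in those of MDA-MB-231. The libraries of CD44 WT and CD44 KO did not overlap for either gene. Both passed the filter on low counts only through the groups where they were high, which favours such a separation. The separation is thus given as a description only. F8, coagulation factor VIII, fell in Hs578T by 1.64 on the log2 scale (edgeR adjusted p = 0.00451), as did GAS6, the ligand of AXL, by 0.69 (adjusted p = 0.00805). F2RL3 rests on 5 counts in Hs578T CD44 WT and F2RL2 on 11 in Hs578T CD44 KO. The calls of F8 and GAS6 were lost without Hs578T CD44 WT replicate 1 (adjusted p = 0.0313 and 0.0564), among others.

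**Figure D5:**
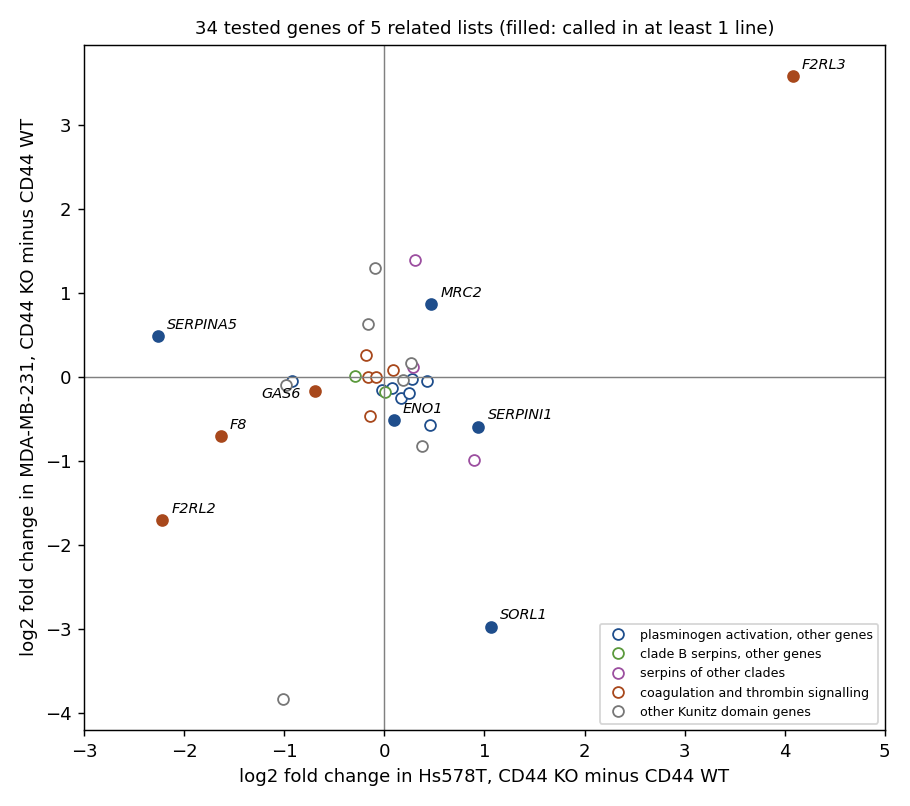
Log2 fold change with CD44 KO in Hs578T (x) and MDA-MB-231 (y) for the 34 tested genes of the 5 lists that had counts in all 4 groups, coloured by list and filled where called in at least 1 line. F2RL2 and F2RL3 are filled as well, although their values are given in the text without a test. SORL1 lies at 1.07 and -2.98, MRC2 at 0.47 and 0.87.

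The genes whose log2 CPM followed the 3 chosen members most closely over the 12 libraries were found among 10505 protein-coding genes with a mean of at least 5 CPM. For SERPINB2 they were GLRB (Pearson's r = 0.992), AKAP12 (0.989) and IL31RA (0.989). For SERPINB7 they were RSU1 (0.993), ECI2 (0.986) and FAM171A1 (0.985), and for TFPI2 GBP3 (0.991), PTPRM (0.991) and ATP6V0A2 (0.988). The 12 points come from 2 lines, and they share the gap between the lines as well as the depth of each library.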

How the data were processed

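Poly(A) RNA of 12 libraries was sequenced by the authors as paired-end reads of 50 bases. They aligned the reads with HISAT2 2.1.0 to GRCh38 and deposited whole-number counts per gene from featureCounts 1.6.2 on GENCODE 28, with a mapping quality of at least 10, strand and both ends required, without normalization. From the counts, genes over 1 CPM in at least 2 libraries and with at least 300 nt of exon were tested in R 4.3.3 with edgeR 4.0.16 (TMM, quasi-likelihood fit, 4 group means, Benjamini-Hochberg over 15836 genes). Genes with an adjusted p not above 0.01 were called. The methods of the study name genes under 300 nt as those kept, and this was read as those removed. The fit was tested on simulated data.

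The members and gene lists were chosen with earlier results of these data known. Named were the 9 members, list genes called in a line, called genes within 1 Mb of a member (at most the 3 nearest), and for the 3 chosen members the 3 most correlated protein-coding genes. An MDA-MB-231 CD44 WT library carries no replicate number. Gene names and promoters came from RefSeq tables, and gene types from a later GENCODE release. Alternatives included DESeq2 1.42.0, other scalings and filters, blocks and the removal of each library.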

Additional observations from a re-analysis of the deposited data

Results flagged for a closer look

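For 3 of the genes described, the change with CD44 KO differed between the lines by the test of the difference itself (edgeR, Hs578T minus MDA-MB-231). PLAT differed by -1.52 on the log2 scale (standard error 0.245, adjusted p = 0.00105), lower in 3 of 3 Hs578T CD44 KO libraries than in any CD44 WT library of that line. SORL1 differed by 4.04 (standard error 0.576, adjusted p = 3.32e-04), higher with CD44 KO in Hs578T and lower in MDA-MB-231 without overlap of the libraries in either line. SERPINI1 differed by 1.53 (standard error 0.311, adjusted p = 0.00544), in the same directions as SORL1. This difference of SERPINI1 no longer passed with the replicate block (adjusted p = 0.011), a fit that also left out the library without a number. It was also lost without Hs578T CD44 WT replicate 1 (0.018) or 2 (0.0202), Hs578T CD44 KO replicate 2 (0.0193) or 3 (0.0133), MDA-MB-231 CD44 WT replicate 3 (0.0145) or the library without a number (0.0119), or MDA-MB-231 CD44 KO replicate 1 (0.0131) or 2 (0.0168). Groups of 3 libraries are too small for a search for outlying samples.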

How the results depend on the processing

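Among the 9 members, the difference of the PLAT changes between the lines passed under every alternative run, and so did the line differences of the 7 members tested for it, except that of PLAU where a log2 change of at least 1 was required. Changes with CD44 KO that did not pass changed sign without a library for SERPINE2 in Hs578T (from -0.076 to 0.19 over the leave-one-out fits) and for TFPI in MDA-MB-231 (from -0.046 to 0.23). SERPINB8 in MDA-MB-231 passed with DESeq2 and without the filter on low counts (adjusted p = 0.00253), where PLAT (4.01e-05) and PLAU (0.0066) in that line passed as well. The cause was not tested.

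Counts of calls moved more than the members. The replicate block gave 436 calls in MDA-MB-231 (731 without it) and 2 of the related genes (4 without it). That fit also left out the MDA-MB-231 CD44 WT library without a number, so the block is not its only change. For pairing, deviations of log2 CPM from the group mean were correlated between CD44 WT and CD44 KO libraries of a line. Libraries of the same replicate number gave -0.096 to 0.164. Those with neighbouring numbers in the column labels gave 0.008 to 0.164. The numbers were not treated as pairs, and the replicate block changed no call of a member. MDA-MB-231 alone gave 315 calls and 1 related gene. DESeq2 called 1138 genes and 7 related genes in MDA-MB-231 and 1179 differences between the lines. Without the filter, where more genes are tested, Hs578T had 1984 calls and 15 related genes, MDA-MB-231 1370 and 12, and the difference 1373. At an adjusted p of at most 0.05 there were 2253, 1518 and 1670, with 8 related genes in MDA-MB-231. With a log2 change of at least 1 there were 744 and 328, with 2 related genes in MDA-MB-231, and 6133 between the lines. A window of 0.5 Mb or 2 Mb around the members gave 1 or 15 called neighbours in Hs578T (4 of 114 tested at 1 Mb, beside 7.51% of all genes). A wider window holds more tested genes, so these counts alone do not show a change in the share called.

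Leaving out each library gave 605 (without Hs578T CD44 KO replicate 2) to 1685 calls in Hs578T with 2 to 12 related genes, 355 (without MDA-MB-231 CD44 KO replicate 2) to 763 in MDA-MB-231 with 1 to 5, 396 to 804 for the difference of the changes and 11051 to 11901 between the lines. Depth limits SERPINB2 and SERPINB7 in Hs578T, which rest on at most 29 counts per group.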
